A study of Mus musculus with 32 samples.

Results

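Postnatal maturation of the mouse stomach was followed in 10 of the 32 libraries of the series, which were all its stomach libraries, each a table of gene levels from stranded sequencing of ribosome-depleted total RNA. The 6 older libraries came from the bottom part of the stomach at postnatal day 10 (P10), P15 and P20, and the 4 younger ones from the whole stomach at P1 and P5, because the organ was divided only in mice older than P5. Each stage had 1 percc1-/- and 1 wild-type library. The members were chosen by tissue and stage from the sample labels, with no measured value. The percc1-/- mice lack a stretch of chromosome 17, which a single loxP site replaced in a line made from W4/129S6 embryonic stem cells. Both genotypes were on a mixed 129Sv/C57 background kept by sibling breeding, and the labels give no treatment. With 1 library per stage and genotype, the 3 older stages stand as replicates of 1 group and the 2 younger stages as replicates of the other. The labels do not say whether a library is 1 animal or a pool, so a p-value measures only the spread between these libraries, part of which may be technical.

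The mouse stomach has 2 linings. The upper part, the forestomach, is covered by a keratinised squamous epithelium like that of the oesophagus. The lower part is glandular: parietal cells secrete acid through the proton pump, chief cells secrete pepsinogens, pit and neck cells secrete mucus, and endocrine cells of the antrum secrete gastrin and somatostatin. Around weaning a milk diet gives way to solid food, and the gland takes on its adult enzymes. A change between the older and younger libraries therefore holds both the age of the mice and the loss of the upper stomach from the dissection.

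The promoters of 2 gastric proteases whose levels went opposite ways after P10 are given first. Pgc encodes progastricsin, an adult pepsinogen, and Cym encodes chymosin, the milk-clotting protease of suckling animals. Each window runs from 250 bases before to 50 bases after the RefSeq gene start on GRCm38.p6, at chr17:47726592-47726891 on the plus strand for Pgc and at chr3:107221683-107221982 on the minus strand for Cym. Capitals mark TATAAA, the core promoter element searched for.
Pgc: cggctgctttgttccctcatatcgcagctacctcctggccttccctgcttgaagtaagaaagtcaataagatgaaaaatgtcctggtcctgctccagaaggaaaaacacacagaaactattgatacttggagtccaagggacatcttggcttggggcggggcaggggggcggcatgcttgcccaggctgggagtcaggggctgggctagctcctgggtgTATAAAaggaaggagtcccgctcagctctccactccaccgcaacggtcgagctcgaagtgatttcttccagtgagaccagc
Cym: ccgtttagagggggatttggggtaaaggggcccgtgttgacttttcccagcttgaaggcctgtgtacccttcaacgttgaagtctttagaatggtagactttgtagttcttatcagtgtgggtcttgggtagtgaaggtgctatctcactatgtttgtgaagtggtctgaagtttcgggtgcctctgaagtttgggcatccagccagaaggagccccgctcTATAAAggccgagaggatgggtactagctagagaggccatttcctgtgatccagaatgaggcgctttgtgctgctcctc
Each window held TATAAA once on its own strand, starting 31 bases before the gene start in Pgc and 29 bases before it in Cym. Of 32851 RefSeq promoter windows of 300 bases, 13.6% held TATAAA on either strand, and the window of Atp4a, a proton pump subunit, did not. The motif AGATAA, of the kind GATA factors bind, stood in 11.2% of the windows on either strand. The motif AAGGTCA, of the kind nuclear receptors bind, stood in 4.72%. Neither stood in the windows of Pgc, Cym or Atp4a in these exact letters, the only form searched for. Other forms of either site, such as TGATAA or AGATAG for GATA factors, are not covered. The Cym window holds both of these on its opposite strand. The letters are shown as a description of both genes and were not tested against their levels.

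Levels are FPKM, fragment numbers scaled to transcript length and library size, as the authors' Cufflinks runs gave them, rescaled here so that the median gene is equal between libraries. Fold changes are limma estimates on log2(rescaled FPKM + 1), so those of low genes are understated. Fragments were estimated from the tables at 8980000 to 14100000 in older and 11900000 to 17600000 in younger libraries. Among genes of at least 1500 bases the highest deposited level was 83.8 to 130 FPKM in each library, near the level of 1 fragment per base (56.7 to 111 FPKM), so changes of the most abundant genes are understated too; the cause was not tested. Some libraries stood apart. The P1 percc1-/- library correlated at 0.725 to 0.870 with the others, on log2 levels across genes, against 0.808 to 0.949 among the other 9, and was low in gland genes throughout. Liver markers summed to 407 FPKM in the P5 percc1-/- library, against 37.1 to 73.8 FPKM in the rest. Pancreas markers summed to 489 FPKM in the P10 percc1-/- library (20.2 to 184 FPKM in the rest) and skeletal muscle markers to 122 FPKM in the P15 wild-type library (21.1 to 74.9 FPKM in the rest). Both P10 libraries had 25.6 and 20.2 FPKM of Xist, the X-inactivation RNA of female cells, and the other 8 had at most 0.489 FPKM. The part of these differences in the results was not tested, and counts without the 4 libraries high in another tissue's markers or low in gland genes are given below.

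Between older bottom stomach and younger whole stomach, with genotype as a covariate, 2280 of 13392 tested genes passed an adjusted p of 0.05 (17.0%), 1047 of them higher (7.82%) and 1233 lower (9.21%) in the older libraries. The groups did not overlap at all in 1729 called genes (12.9%), 5.96% upward and 6.95% downward. Without rescaling, 2790 genes passed, 76.7% of them higher in place of 45.9%, and the median of all genes moved to 0.20 on the log2 scale; quantile normalization gave 56.2% higher. Leaving out single libraries gave 1133 to 2606 genes, with 1133 without P1 wild type, 1215 without P1 percc1-/-, 1475 without P15 percc1-/- and 1480 without P20 percc1-/-. Without the 4 libraries that stood apart (P1, P5 and P10 percc1-/- and P15 wild type) 275 passed. The gene lists below and their members were chosen with earlier results of these data known. Their counts and called shares are therefore descriptions and no test of the lists.

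Genes of acid secretion were higher. Of 20 parietal cell genes, all tested, 14 were called higher in older bottom stomach and 0 lower (70% called, against 17.0% of all genes). The median log2 change of the 20 was 0.95, against -0.02 over all genes. Atp4a and Atp4b, the catalytic and the glycosylated subunit of the proton pump, stood at 51.3, 64.7 and 81.4 FPKM (Atp4a) and at 51.6, 60.3 and 74.8 FPKM (Atp4b) as lowest, median and highest of the older libraries, against 22.5, 40.7, 49.8 and 52 FPKM and 19.7, 40.1, 41.3 and 50.9 FPKM in the younger ones. Their log2 changes were 0.74 ± 0.22 (SE; adjusted p = 0.0442) and 0.75 ± 0.22 (adjusted p = 0.0393), and each call ended in 7 of the 10 fits that left out 1 library. In the older libraries both subunits lay near the level of 1 fragment per base, which was 66.9 to 95.8 FPKM there once rescaled and 69 to 84.3 FPKM in the younger ones, so their change may be understated. In bulk tissue, more cells of a type and more RNA per cell cannot be told apart.

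Several channels and receptors around the pump had larger estimates than the pump itself, whose levels lie near the upper limit given above. Kcne2, the beta subunit of the apical potassium channel that recycles potassium for the pump, averaged 19.9 ± 5.29 FPKM in the older and 7.67 ± 3.73 FPKM in the younger libraries (SD, n = 6 and 4), a log2 change of 1.39 ± 0.34 (adjusted p = 0.0216). Kcnj16, an inward rectifier potassium channel, was at 9.84 to 25.2 FPKM in older and 1.05 to 7.53 FPKM in younger libraries (log2 change 1.55, adjusted p = 0.0247), a call that ended without P15 percc1-/-, P20 percc1-/-, P20 wild type or P1 wild type. Both genes separated the groups without overlap, and in both the P1 percc1-/- library was the lowest. Hrh2, the histamine receptor that stimulates acid, stood at 4.36 to 12.5 FPKM in older and 0.5 to 3.48 FPKM in younger libraries (log2 change 1.49 ± 0.33, adjusted p = 0.0147). Sstr2, the somatostatin receptor that restrains it, stood at 2.38 to 5.47 FPKM against 0.324 to 0.921 FPKM (log2 change 1.48 ± 0.18, adjusted p = 0.00108). Hrh2 and Sstr2 thus were both higher, while Cckbr, another receptor on the list, had an estimate of 0.55 that did not pass (adjusted p = 0.126). Kcnq1, the alpha subunit of Kcne2's channel, was listed at 0 in 8 of the 10 libraries and at 17.9 FPKM in P15 percc1-/- and 24.1 FPKM in P20 wild type, and a 0 can be a failed estimate. Chrm3, the muscarinic receptor, was the parietal gene with a negative estimate (-0.32, adjusted p = 0.264). The count of 14 fell to 7 without P15 percc1-/- or P20 wild type, to 8 without P20 percc1-/-, P1 percc1-/- or P1 wild type, to 2 without both P1 or both P15 libraries and to 1 without the 4 libraries that stood apart, while the median stayed between 0.69 and 1.16 in all alternatives.

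**Figure D1:**
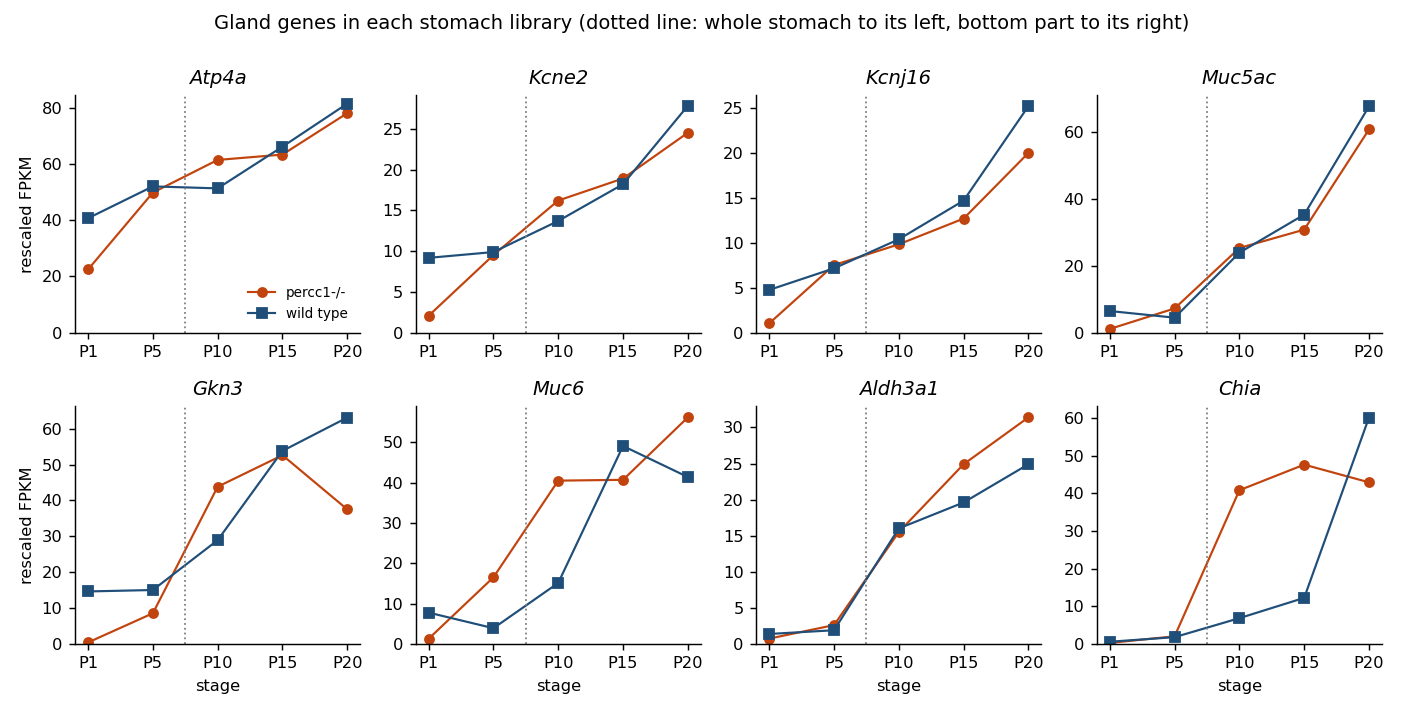
Rescaled FPKM (y axis) of 8 gland genes by stage (x axis), 1 point per library, circles percc1-/- and squares wild type; the dotted line separates whole stomach on its left from bottom stomach on its right. Atp4a, Kcne2, Kcnj16 and Muc5ac are higher at P20 than at P10 in both genotypes, while Chia is at 42.9 to 60.1 FPKM at P20 in both genotypes but at 6.81 and 12.2 FPKM at P10 and P15 in wild type.

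Most mucus genes rose. Of 24 pit and neck cell genes, all tested, 15 were higher and 0 lower (62.5% called, against 17.0% of all genes). The median log2 change of the 24 was 0.93. Muc5ac, the main mucin of surface pit cells, stood at 1.15, 7.29, 25.4, 30.9 and 60.9 FPKM at P1, P5, P10, P15 and P20 in percc1-/- libraries and at 6.52, 4.53, 24, 35.4 and 67.8 FPKM in wild-type ones. The 2 genotypes followed the same course from P10 on. Its log2 change was 2.88 ± 0.41 (adjusted p = 0.00191). Muc6, the mucin of neck and antral gland cells, averaged 40.5 ± 13.9 FPKM in the older and 7.33 ± 6.65 FPKM in the younger libraries (SD, n = 6 and 4; log2 change 2.60, adjusted p = 0.01), and the groups overlapped because P10 wild type (15.1 FPKM) lay below P5 percc1-/- (16.5 FPKM). Gkn3, a gastrokine of the neck, was at 28.9 to 63.1 FPKM against 0.377 to 15 FPKM (log2 change 2.61 ± 0.54, adjusted p = 0.0118). A4gnt, a gene outside the list and the transferase that caps the glycans of Muc6, was higher by 2.19 (adjusted p = 0.00282), and Tff1, the pit cell trefoil factor, by 1.27 (adjusted p = 0.0215). The 2 members of the list with negative estimates, named for that, were Tff3 and Muc13, and neither passed (adjusted p = 0.767 and 0.258). Tff3 was at 1.57 to 9.91 FPKM in older and 1.95 to 17.6 FPKM in younger libraries, and Muc13 at 1.42 to 12.8 against 4.87 to 17.4 FPKM. The count of 15 ran from 9 to 20 with single libraries left out, with 9 without P20 percc1-/-, P20 wild type or P1 wild type, and was 4 without the P20 stage and 2 without the 4 libraries that stood apart.

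Chief cell genes split. Of 12 genes 8 were tested, and 2 passed, both higher (25% called, against 17.0% of all genes). The count was 4 without P10 wild type, 0 in wild type alone and 0 without the 4 libraries that stood apart. Chia, the acidic chitinase that mouse chief cells secrete, had the largest rise of all genes named by the rule (log2 change 3.85 ± 0.54, adjusted p = 0.00183). In percc1-/- libraries it stood at 0.229, 1.99, 40.8, 47.6 and 42.9 FPKM from P1 to P20, and in wild-type ones at 0.544, 1.76, 6.81, 12.2 and 60.1 FPKM. The genotypes thus were several times apart at P10 and P15 and close at the other stages, with 1 library behind each value. Gif, intrinsic factor for vitamin B12 uptake, stood at 43.8 to 62.2 FPKM in older and 10.1 to 30.6 FPKM in younger libraries (log2 change 1.31 ± 0.26, adjusted p = 0.0086).

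The order of the proteases by level turned round within the older libraries, at levels that in part exceed the 1 fragment per base described above, so that their sizes and the ratios below are uncertain. Pgc stood at 23.6, 41.1, 64.4, 70.6 and 154 FPKM from P1 to P20 in percc1-/- libraries and at 42, 44.9, 44.7, 59.6 and 165 FPKM in wild-type ones. Cym stood at 75.7, 156, 187, 140 and 76.6 FPKM in percc1-/- libraries and at 174, 204, 166, 160 and 75.7 FPKM in wild-type ones. Pga5, pepsinogen A, stood at 41, 117, 131, 64.3 and 47.9 FPKM in percc1-/- libraries and at 116, 105, 95.9, 61.9 and 43.2 FPKM in wild-type ones. The Pgc step came between P15 and P20 in both genotypes, and Cym and Pga5 at P20 were the lowest of the older stages in both. None of the 3 passed between older and younger libraries (adjusted p = 0.0634 for Pgc, 0.744 for Cym and 0.555 for Pga5). Per 10 days from P10 to P20 the log2 changes were 1.55 ± 0.27 for Pgc, -1.21 ± 0.20 for Cym and -1.29 ± 0.14 for Pga5, with adjusted p = 0.19, 0.186 and 0.133. The ratio of Pgc to Pga5, formed after the values were seen and not tested, was 3.21 and 3.81 at P20 (percc1-/-, wild type), 1.1 and 0.962 at P15 and 0.491 and 0.466 at P10, against 0.351 to 0.575 in whole stomach. The ratio of Pgc to Cym was 2.01 and 2.18 at P20, against 0.22 to 0.312 in whole stomach. On mm9, in the GENCODE M1 annotation, Pgc lies at chr17:47863791-47871432, Cym at chr3:107014211-107024650 and Pga5 at chr19:10743447-10752561, so these genes are not neighbours.

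**Figure D2:**
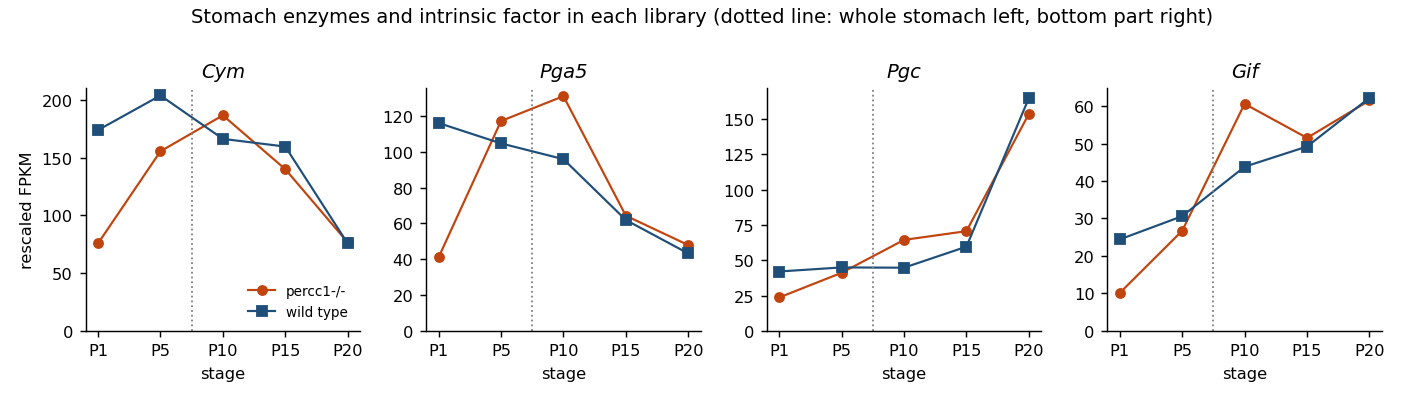
Rescaled FPKM (y axis, from 0) of chymosin (Cym), pepsinogen A (Pga5), progastricsin (Pgc) and intrinsic factor (Gif) by stage (x axis), 1 point per library, circles percc1-/- and squares wild type, with the dotted line between whole and bottom stomach. At P20 Cym is at 76.6 and 75.7 FPKM and Pgc at 154 and 165 FPKM (percc1-/-, wild type), with Cym and Pga5 below and Pgc above their P15 levels in both genotypes.

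Some endocrine genes were higher. Of 16 endocrine genes 12 were tested, with 5 higher, 0 lower and 7 not called (41.7% called, against 17.0% of all genes). The count was 2 without the P1 stage and 2 without the 4 libraries that stood apart. Gast, gastrin, stood at 0, 0.805, 7.34, 15.9 and 13.1 FPKM from P1 to P20 in percc1-/- libraries and at 5.6, 12.6, 22.7, 22.9 and 25.4 FPKM in wild-type ones (log2 change 2.30 ± 0.39, adjusted p = 0.00443), so each percc1-/- library lay below the wild-type one of its stage. Sst, somatostatin, rose by 1.53 (adjusted p = 0.0265), with the same order of genotypes at each stage, and its call ended without P15 percc1-/-, P20 percc1-/- or P1 wild type. Chgb, a granin of secretory granules, averaged 20 ± 6.44 FPKM against 7.11 ± 3.21 FPKM (log2 change 1.40 ± 0.14, adjusted p = 0.000643), and Tph1, the enzyme that makes serotonin, was at 1.8 to 10.4 FPKM against 0.294 to 3.32 FPKM (log2 change 1.38, adjusted p = 0.00108). Both were higher in percc1-/- than in wild type at every stage. Ghrl, ghrelin, was at 0 to 1.69 FPKM in the 5 percc1-/- libraries and at 41.8 to 63.3 FPKM in the 5 wild-type ones, and did not pass with age (adjusted p = 0.158).

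Most of the stomach regulators that passed rose. Of 30 stomach transcription factors 27 were tested, with 14 higher and 3 lower (63% called, against 17.0% of all genes). Pdx1, an antral and duodenal factor, stood at 3.92 to 5.66 FPKM in older and 0.116 to 1.39 FPKM in younger libraries (log2 change 1.84 ± 0.18, adjusted p = 0.000643), and Nkx6-3, an antral factor, at 4.27 to 6.76 FPKM against 0 to 2.2 FPKM (1.80 ± 0.23, adjusted p = 0.00113). Foxa2, Gata4 and Foxa3, endodermal factors, rose by 1.24, 1.19 and 1.11 (adjusted p = 0.0247, 0.0466 and 0.0173); the call of Gata4 ended in 7 of 10 fits without 1 library and that of Foxa2 in 3. Meis1, a homeobox factor of the gut wall, averaged 16.7 ± 3.76 FPKM against 36.7 ± 10.5 FPKM (log2 change -1.07 ± 0.20, adjusted p = 0.00719). Sox2, a factor of forestomach and stomach progenitors chosen here after its values were seen, stood at 6.64, 6.11 and 4.9 FPKM (percc1-/-) and 7.16, 6.24 and 5.03 FPKM (wild type) at P10, P15 and P20, below 9.32 to 9.87 FPKM in the younger libraries (log2 change -0.59 ± 0.12, adjusted p = 0.00868). The count of 14 ran from 7 to 13 with single libraries left out, with 7 without P20 percc1-/- or P1 wild type, 8 without P15 percc1-/- or P15 wild type and 9 without P20 wild type or P1 percc1-/-, and was 2 without the 4 libraries that stood apart.

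Squamous genes were lower. Of 42 genes of the squamous forestomach lining 33 were tested, and 29 were called lower and 0 higher, all 29 with groups that did not overlap, against 6.95% of all genes so separated downward; the median log2 change was -1.53. Trp63, the master regulator of squamous basal cells, stood at 1.21, 2.34 and 4.24 FPKM as lowest, median and highest of the older libraries, against 20, 12.9, 19.2 and 11.8 FPKM in the younger ones (log2 change -2.30 ± 0.27, adjusted p = 0.00106). Ivl, involucrin of the cornified envelope, was at 0.391 to 1.87 FPKM against 5.35 to 11.2 FPKM (-2.29 ± 0.27, adjusted p = 0.00108). Tgm3 and Tgm1, transglutaminases that crosslink that envelope, had log2 changes of -2.42 and -2.36, Crnn, cornulin, had -2.31 and the serine protease Klk13 had -2.22 (adjusted p = 0.000643 to 0.00117). RNA of these genes was not absent from the bottom part, and whether squamous lining or other cells gave it was not tested. Summed over 34 genes, squamous markers were at 431, 377, 248, 398, 296 and 353 FPKM in P10, P15 and P20 (percc1-/- and wild type in turn), against 929, 819, 705 and 779 FPKM in P1 and P5 in the same order. Krt5 and Krt14, the keratins of squamous basal cells, lacked a value in some libraries. They were fitted apart over the rest, with p-values adjusted only among genes so fitted. Their log2 changes were -1.15 ± 0.18 (adjusted p = 0.00405; P20 missing) and -1.37 (adjusted p = 0.00191; P20 percc1-/- missing), with Krt5 at 9.9 to 18.3 FPKM against 25.2 to 35.1 FPKM. The count of 29 ran from 28 to 30 with single libraries left out and was 17 without the P1 stage and 17 without the 4 libraries that stood apart. Mesothelial genes of the outer surface fell as well, 5 of 6 tested (7 on the list), with log2 changes of -1.71 for Upk1b, a uroplakin (adjusted p = 0.00325), and -1.67 for Msln, mesothelin (adjusted p = 0.00311); 1 was called without the 4 libraries that stood apart.

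**Figure D3:**
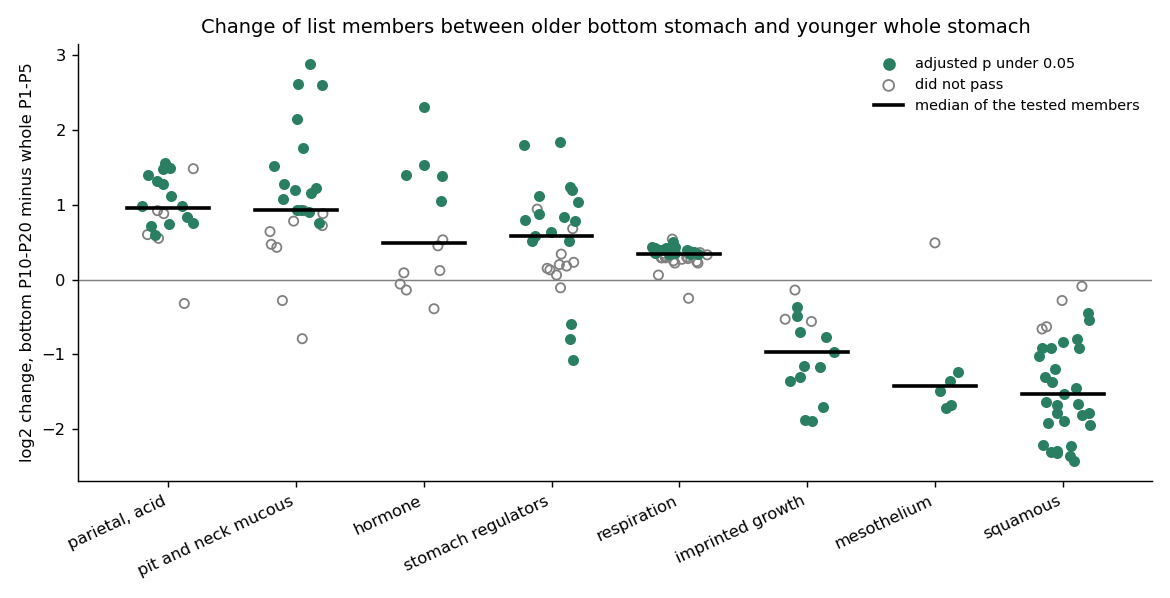
Log2 change between older bottom and younger whole stomach (y axis) of each tested member of 8 gene lists (x axis); filled points passed an adjusted p of 0.05, open points did not, and bars are medians. The medians are 0.95 for parietal, 0.93 for pit and neck and -1.53 for squamous genes, and no squamous or imprinted gene lies above 0.

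Imprinted growth genes declined. Of 21 genes 15 were tested, with 12 lower and 0 higher (80% called, against 17.0% of all genes) and a median of -0.97. Igf2, the fetal insulin-like growth factor, stood at 32.2, 31.4, 11.8, 8 and 3.89 FPKM from P1 to P20 in percc1-/- libraries and at 31.9, 28.2, 10, 12.5 and 4.17 FPKM in wild-type ones (log2 change -1.87 ± 0.30, adjusted p = 0.00339). Dlk1, a Notch-like inhibitor of differentiation, reached 0.565 and 0.207 FPKM at P20 (percc1-/-, wild type), against 7.66 to 10.2 FPKM in whole stomach (-1.89 ± 0.36, adjusted p = 0.0075). Both were lower at P20 than at P10 in both genotypes. Mest, Zim1, Slc38a4 and Plagl1 had log2 changes of -1.30, -1.70, -1.35 and -1.17; of these Mest lost its call without P1 wild type (adjusted p = 0.052). Igf2bp3, an RNA-binding protein of fetal tissue, was at 24.4, 16.3, 9.43, 5.67 and 3.34 FPKM in percc1-/- and 17.8, 13, 14.7, 6.38 and 3.28 FPKM in wild-type libraries (-1.34, adjusted p = 0.0308), and its call ended in 7 of 10 fits. The count of 12 fell to 7 without P1 wild type, to 1 without the P1 stage and to 2 without the 4 libraries that stood apart.

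**Figure D4:**
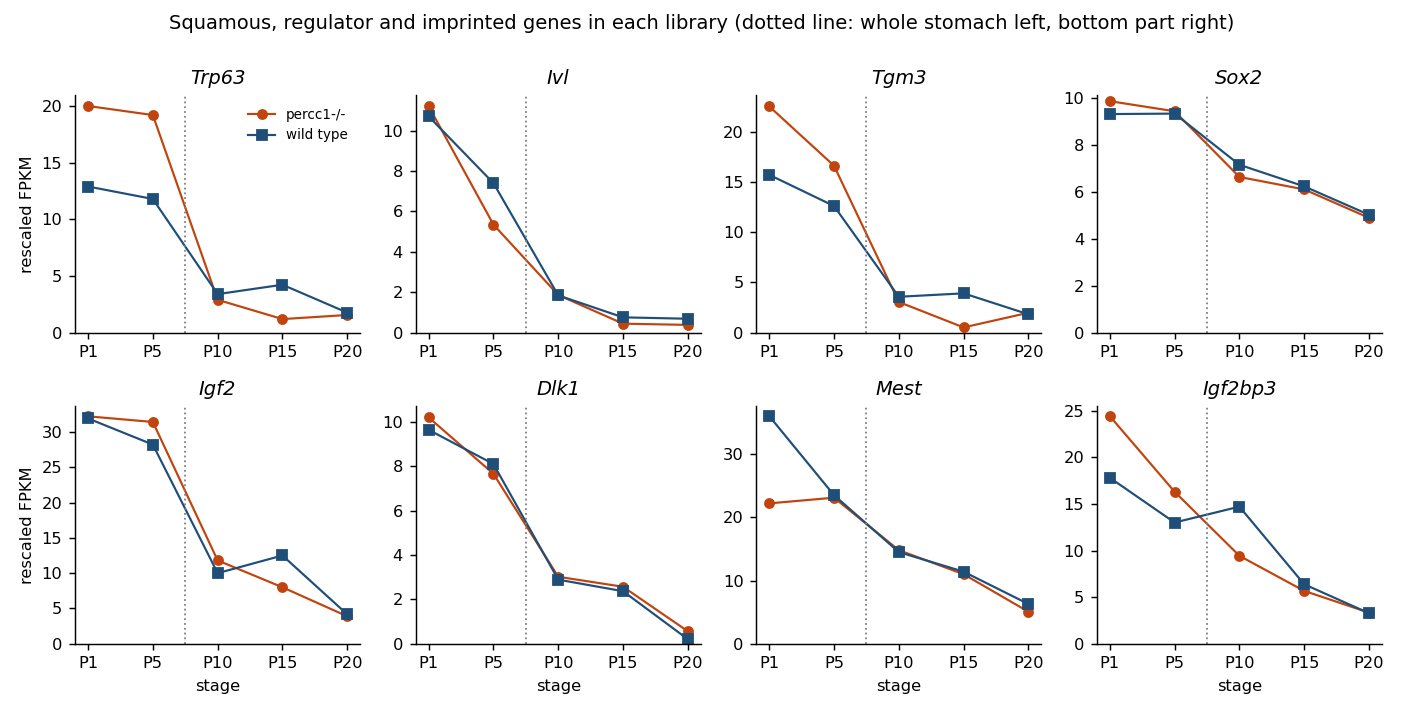
Rescaled FPKM (y axis, from 0) of squamous genes (Trp63, Ivl, Tgm3), the regulator Sox2, imprinted genes (Igf2, Dlk1, Mest) and Igf2bp3 by stage (x axis), 1 point per library, circles percc1-/- and squares wild type, with the dotted line between whole and bottom stomach. Trp63 and Tgm3 drop across the dotted line, while Mest and Igf2bp3 are lower at P20 than at P10 on its right side.

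Some mitochondrial respiration genes rose, by little. Of 36 genes, all tested, 15 were higher and 0 lower (41.7% called, against 17.0% of all genes), with a median log2 change of 0.34. Cyc1, a subunit of complex III, averaged 31.4 ± 4.38 FPKM in older and 21.8 ± 2.63 FPKM in younger libraries (log2 change 0.50 ± 0.12, adjusted p = 0.0173). The count moved with single libraries, with 0 called without P1 percc1-/- and 1 without P1 wild type, and it ran up to 30 without P10 wild type. Single libraries that took it under 10 were also P10, P15 and P20 percc1-/-, P15 and P20 wild type and P5 percc1-/- (4 to 7 called). It was 0 without the P1, P15 or P20 stage, on stage means of both genotypes and without the 4 libraries that stood apart. In lipid and ketone metabolism, 7 of 21 tested genes (22 on the list) were higher and 2 lower (42.9% called, against 17.0% of all genes). Fabp3, a fatty acid carrier, was at 23.7 to 40 FPKM in older and 6.07 to 13.2 FPKM in younger libraries (log2 change 1.64 ± 0.20, adjusted p = 0.00113). Ppara, the receptor that drives fat oxidation, had a log2 change of -1.01 (adjusted p = 0.0277), a call that ended in 6 of 10 fits without 1 library. The 2 lower calls fell to 0 without P20 percc1-/-, P1 percc1-/-, P1 wild type or P5 percc1-/- and to 1 without P10 percc1-/- or P15 percc1-/-, and without the 4 libraries that stood apart 1 gene was higher and 0 lower. Within the older libraries 2 genes of this list that did not pass are named for standing lowest at P20, a choice made after their values were seen. Angptl4, a lipase inhibitor, had 2.2 and 1.33 FPKM there (percc1-/-, wild type), against 8.01 to 11.9 FPKM at P10 and P15. Ehhadh, a peroxisomal oxidation enzyme, had 12.5 and 10.9 FPKM at P20 (percc1-/-, wild type), against 21.1 to 24.2 FPKM at P10 and P15. Their log2 changes per 10 days were -2.26 and -0.90 (adjusted p = 0.194 and 0.213).

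Of 22 antigen presentation and myeloid genes 18 were tested, with 4 higher and 0 lower (22.2% called, against 17.0% of all genes), or 2 higher without P1 percc1-/- or P1 wild type and 1 without the 4 libraries that stood apart. H2-Aa, a class II chain, stood at 16.9, 15.2 and 9.57 FPKM (percc1-/-) and 20.8, 10.3 and 15.5 FPKM (wild type) at P10, P15 and P20, against 3.17 to 6.76 FPKM in whole stomach (log2 change 1.41 ± 0.25, adjusted p = 0.00611). Class II genes are close paralogs, and reads may have been shared among them. From P10 to P20 all 18 members had negative slopes, with a median of -0.66 per 10 days, and 16 were lower at P20 than at P10 in both genotypes, as were 4679 of all 13392 genes; both P10 libraries differ from the later ones in Xist as well, and between P15 and P20 8 of the 18 were lower in both. Of 8 tested mast cell genes (12 on the list) 2 rose and 3 fell (62.5% called). Mcpt2, a mucosal mast cell protease, was at 3.93 to 7.73 FPKM in older and 0.41 to 2.24 FPKM in younger libraries (log2 change 1.70 ± 0.24, adjusted p = 0.00197), and Mcpt1, of the same family, had a log2 change of 0.87 (adjusted p = 0.0313). Cpa3, a carboxypeptidase, Tpsb2, a tryptase, and Hpgds, a prostaglandin D synthase, had -0.89, -0.96 and -0.64 (adjusted p = 0.0387, 0.0425 and 0.0324). Of the falls 0 were left without P15 percc1-/-, P15 wild type, P20 percc1-/-, P20 wild type, P1 percc1-/- or P1 wild type, and 1 without P5 wild type; no mast cell gene was called without the 4 libraries that stood apart.

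In the remaining lists the called share, over both directions, ran from far below to above the 17.0% of all genes. It was 41.7% for stem and progenitor genes, 40% for patterning signals, 42.9% for tuft cell genes and 34.8% for retinoid and detoxification genes, and 20% for collagen and matrix genes, 19% for smooth muscle genes and 5.88% for cell cycle genes. Among 12 tested stem and progenitor genes (14 listed) 2 rose, with Sox9, a progenitor factor, at 6.62 to 9.45 against 1.31 to 4.5 FPKM (1.32, adjusted p = 0.00589), and 3 fell, among them Olfm4, an intestinal stem cell marker (-1.29, adjusted p = 0.00654). Among 20 tested patterning signals (22 listed) 2 rose, with Shh at 6.18 to 12.6 against 0.914 to 4.77 FPKM (1.34, adjusted p = 0.0103), and 6 fell, among them Wnt7b (-2.41, adjusted p = 0.000862) and the Wnt inhibitor Sfrp2 (-1.43, adjusted p = 0.00344). Of cell cycle genes, 2 of 34 tested (35 listed) were lower and 0 higher. Collagen and matrix genes had 2 higher and 5 lower of 35 (37 listed), smooth muscle genes 0 and 4 of 21 (22 listed), and enteric neuron and glia genes 0 and 1 of 22 (26 listed). Retinoid and detoxification genes had 4 higher and 4 lower of 23 (30 listed), tuft cell genes 1 and 2 of 7 (12 listed), glucocorticoid targets 0 and 1 of 15 (16 listed), fetal RNA-binding genes 0 and 2 of 7 (12 listed). Several of these counts rested on single libraries: the smooth muscle count fell from 4 lower to 1 without P15 percc1-/- or P20 percc1-/- and to 2 without P1 percc1-/-, P1 wild type or P5 percc1-/-. Both fetal RNA-binding calls were lost without P15 wild type, P20 percc1-/-, P20 wild type, P1 percc1-/- or P1 wild type and 1 was left without P15 percc1-/- or either P5 library. Lost too were the 2 falls of tuft cell genes without any of P10, P15 or P20 percc1-/-, P15 wild type or either P1 library. Without P1 wild type the retinoid and detoxification counts were 2 and 2, and without the 4 libraries that stood apart 0 collagen, smooth muscle, tuft and fetal RNA-binding genes, 1 stem and progenitor gene and 2 patterning signals were called. In markers of neighbouring tissues, pancreas had 2 higher and 0 lower of 14 (17 listed), liver 0 and 1 of 13 (14 listed), enterocytes 2 and 1 of 13 (14 listed), skeletal muscle 1 and 2 of 8 (16 listed), fat 2 and 0 of 6 (10 listed), lymphocytes 1 and 0 of 2 (24 listed) and red cells 0 of 4 (16 listed).

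Of the 12 largest rises among called genes with separate groups, Chia, Muc5ac, Gkn3 and Aqp5 belong to the chief or mucous lists. After Chia they were Aldh3a1, an aldehyde dehydrogenase (log2 change 3.14 ± 0.24, adjusted p = 0.000365), Mogat1, a monoacylglycerol acyltransferase (3.07), Muc5ac, Glp1r, the receptor of glucagon-like peptide 1 (2.82), Pnliprp2, a pancreatic lipase relative (2.82), Gkn3, Kcne3 (2.37), Vstm2b (2.31), Cxcl17 (2.29), A4gnt and Aqp5 (2.15). Aldh3a1 stood at 15.5 to 31.4 FPKM in older and 0.718 to 2.59 FPKM in younger libraries. Glp1r stood at 2.76 FPKM in P10 wild type and at 9.84 to 12 FPKM in the other 5 older libraries, against 0.129 to 0.695 FPKM in whole stomach. The 3 largest falls, Far2, Anxa9 and Nt5dc2, were each listed at 0 in 5 of the 6 older libraries, which may be failed estimates, and at 4.49 FPKM (Far2) and 5.55 FPKM (Anxa9) in P10 percc1-/- and 5.58 FPKM (Nt5dc2) in P20 percc1-/-. Lyg1, a goose-type lysozyme gene, followed (-3.11), at 0.995 to 10.9 FPKM against 33 to 41.2 FPKM, then Aloxe3, a lipoxygenase of the epidermal barrier (-2.95), and Lypd2 (-2.87). Afp, alpha-fetoprotein, was also among the 12, and its level of 44.8 FPKM in P5 percc1-/- goes with that library's liver markers.

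Age and dissection were parted as far as the design allows in 3 ways, none of which called a gene. Within the 6 bottom stomach libraries, where the part is constant, 0 of 13374 genes passed for a day slope (0%; 2090 at an unadjusted p under 0.05). Between P5 and P1 in whole stomach 0 of 13505 passed (0%; 885 unadjusted). That fit left 1 residual degree of freedom, so few calls were possible and its 0 does not show an absence of change. Its estimates were positive in 15 of 17 parietal and 21 of 23 mucous genes, against 6847 of 13110 genes. They were negative in 28 of 33 squamous and 12 of 15 imprinted genes, against 6263 of all. The P1 percc1-/- library, low in gland genes, enters these directions, which were not tested. A joint fit of day and part over the 10 libraries called 0 of 13392 for day (0%; 1583 unadjusted) and 0 for the step between parts at equal day (0%; 822 unadjusted). No stage had libraries of both parts, so the joint fit takes the same straight-line slope with day in both. Its split between day and step rests on that assumption, which was not tested. These are limma counts, and no other tool was run. The slope count was 284 on levels not rescaled and 2 after quantile normalization, and the step count 1 or 2 in some alternatives. The estimates below are therefore descriptions.

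The estimates of parietal genes lay in the day term. All 20 had a positive slope from P10 to P20, with a median of 0.67 per 10 days, against 6244 of 13043 genes and a median of -0.02, and 19 of the 20 were higher at P20 than at P10 in both genotypes. The 20 and their medians include Kcnq1, listed at 0 in most libraries, whose slope depends on where those values of 0 fall. In the joint fit their median was 0.77 per 10 days with a step of -0.04. Atp4a had 0.68 per 10 days and a step of -0.08 ± 0.34, Kcne2 0.99 and 0.21 ± 0.55, and Kcnj16 1.37 and -0.10 ± 0.53. Both P10 libraries had Xist at 25.6 and 20.2 FPKM and the other 8 at most 0.489 FPKM, so later days and a difference of sex from P10 cannot be told apart in these slopes. Between P15 and P20, compared after the values were seen because none of those 4 libraries was high in Xist, 17 of the 20 parietal genes were higher at P20 in both genotypes and 0 lower in both, against 3449 higher and 3479 lower of 13392 genes. Respiration genes had the same form, with 36 of 36 slopes positive, 0.32 per 10 days and a step of -0.03, and 23 were higher at P20 than at P15 in both genotypes and 0 lower in both. Mucous genes had both terms, 0.61 per 10 days and a step of 0.29, with 22 of 24 slopes positive, and Muc5ac had 1.42 per 10 days and a step of 1.18 ± 0.57.

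For another group of gland genes, chosen after their values were seen, the estimates lay mostly in the step. Kcne3, a potassium channel beta subunit, had a step of 2.25 ± 0.39 with 0.10 per 10 days, Aqp5, a water channel, 2.37 ± 0.69 with -0.18, Gast 1.44 ± 0.74 with 0.72, Pdx1 1.39 ± 0.32 with 0.38 and Nkx6-3 1.38 ± 0.44 with 0.35. Kcne3 was at 10.1 to 14.6 FPKM in the older libraries, with no overlap with 0.979 to 2.91 FPKM in whole stomach. Pdx1 had 3.92 and 4.09 FPKM at P10 and 5.16 and 5.52 FPKM at P20 (percc1-/-, wild type), so most of its change lay between P5 and P10. An abrupt change between P5 and P10 gives the same estimate as a difference between parts, and the joint fit cannot tell them apart.

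Squamous genes had both terms downward, with medians of -0.90 for the step and -0.47 per 10 days. Within bottom stomach 26 of 31 had a negative slope and 20 were lower at P20 than at P10 in both genotypes, but between P15 and P20 only 6 of 33 were lower in both and 7 were higher in both. Trp63 had a step of -1.61 ± 0.50 and -0.58 per 10 days. The estimates of imprinted genes lay in the day term too, with medians of -0.62 per 10 days and -0.21 for the step, and 12 of 15 were lower at P20 than at P10, and 12 lower at P20 than at P15, in both genotypes. Mest had -1.16 per 10 days with a step of 0.09 ± 0.26, and Igf2 -1.11 with -0.55 ± 0.37.

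The smallest p-values of each term lay elsewhere. For the slope they belonged to Vstm2b (2.15 ± 0.16 per 10 days), Upk3a, a uroplakin (-2.46 ± 0.20), Tnni3, a troponin subunit (1.24 ± 0.11; each adjusted p = 0.0927), and Car9, a carbonic anhydrase (1.03 ± 0.11, adjusted p = 0.133). Tnni3 stood at 12.8, 18.1 and 32.8 FPKM at P10, P15 and P20 in percc1-/- and at 16.9, 24.1 and 40.1 FPKM in wild-type libraries. For the step they included 4931406C07Rik (adjusted p = 0.0516), Aldh3a1 (2.04 ± 0.29, adjusted p = 0.325) and Hpse2, a heparanase relative (-1.94 ± 0.29). Hpse2 was at 0.331 to 0.692 FPKM in older and 5.44 to 8.71 FPKM in younger libraries.

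**Figure D5:**
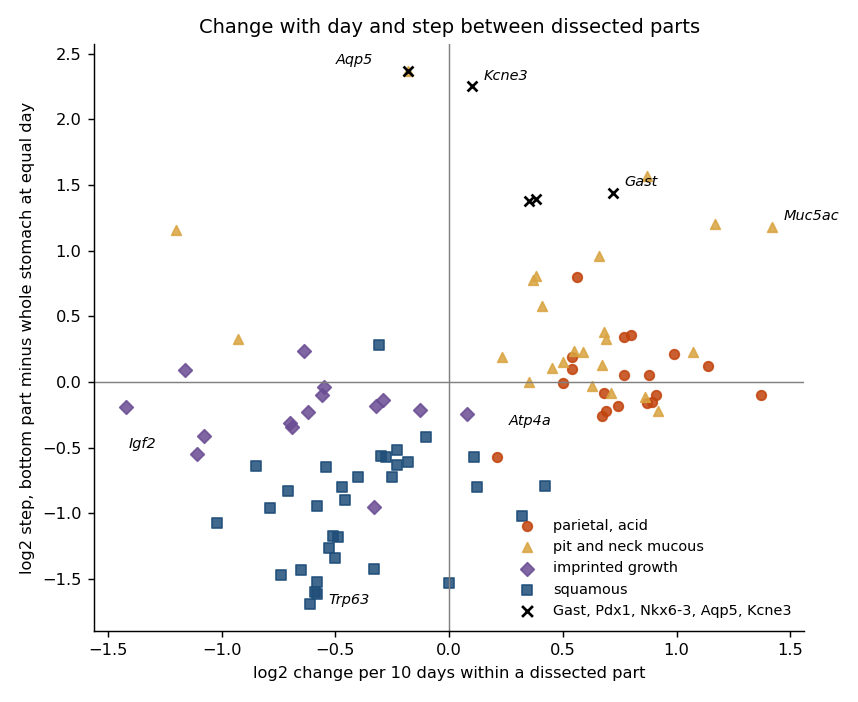
Joint fit of the 10 stomach libraries: log2 change per 10 days within a dissected part (x axis) against the log2 step between bottom and whole stomach at equal day (y axis), 1 point per tested gene of 4 lists, with crosses for 5 genes with large steps; Kcnq1, listed at 0 in most libraries, is left out. Parietal genes lie right of 0 around a step of -0.04, squamous genes mostly below 0 on both axes, and all imprinted genes but 1 left of 0.

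The same age groups in the small intestine, with bottom parts at P10 and P20, top parts at P15 and both at P1 and P5 (14 libraries), were set beside those of stomach. There 753 of 12733 genes passed (5.91%), 3.55% higher and 2.36% lower, and for the difference between organs 1540 of 13069 passed (11.8%), 773 with a higher (5.91%) and 767 with a lower (5.87%) change in stomach. Igf2 changed by -1.87 in stomach and -1.35 in intestine, Dlk1 by -1.89 and -1.27, and Mest by -1.30 and -1.67. Of 14 imprinted genes compared, 0 differed between organs by this test, and 8 were called lower in intestine. Their median difference was -0.35, with 5 at an unadjusted p under 0.05, so the lack of a call does not show an equal change. Of 19 parietal genes compared, 8 had a higher change in stomach, among them Kcnj16 (difference 1.98, adjusted p = 0.00252), Hrh2 (1.45, adjusted p = 0.00679) and Sstr2 (1.41, adjusted p = 0.0012), but not Atp4a (0.19, adjusted p = 0.909). Of 36 respiration genes 15 had a higher change in stomach, where the list's median was 0.34 against -0.03 in intestine. Of 31 squamous genes 10 had a lower change in stomach and 0 a higher one, and of 6 mesothelial genes 5 had a lower one. In intestine alone only 14 squamous, 4 mesothelial and 12 parietal genes passed the filter on level. The others entered through their stomach levels, so their differences largely restate the stomach change. Of the 14 squamous genes, 11 had negative and 3 positive estimates in intestine (median -0.63). Aldh3a1 (3.05, adjusted p = 8.2e-06) and Mogat1 (3.21, adjusted p = 2.18e-05) were among the largest differences upward.

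The age effect differed between genotypes in 5 of 13392 genes (0.0373%; 909 at an unadjusted p under 0.05): Prelid1, Dnajc19, Pgam2, Trmu and Stambpl1. All 5 were listed at 0 in both younger percc1-/- libraries, and a 0 can be a failed estimate, so no fold is given. With single libraries left out the count ran from 3 to 109, with 3 without P15 wild type or P20 wild type, 109 without P1 percc1-/- and 78 without P5 percc1-/-.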

How the data were processed

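Per the labels' protocols, total RNA was extracted with TRIzol, depleted of ribosomal RNA and made into stranded libraries. Per the submitters' processing notes, TopHat2 2.0.13, SAMtools 0.1.18 and Cufflinks 2.2.1 were used and the build is mm9; the deposited values are the authors' gene FPKM, 1 table per library, with no counts. The 10 stomach and 14 small intestine libraries were used; 8 of large bowel or whole gut were not used here. FPKM were rescaled by the median ratio over 11540 genes above 1 FPKM in all libraries. Genes merged with a neighbour in any stomach library (753) were left out. Those lacking a value in at most 3 libraries were fitted apart, with p-values adjusted among themselves. limma 3.58.1 in R 4.3.3 (trended, robust) was run on log2(FPKM + 1) for genes averaging 1 FPKM or more, with Benjamini-Hochberg adjustment over all genes tested and a threshold of 0.05. The test was tried on simulated data. Intervals that need counts are not given.

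Genes named are the 12 largest rises and falls among called genes with separate groups, tested members of the parietal, chief, mucous and hormone lists, and up to 6 called members of each of the other lists among the 29. For the remaining comparisons they are up to 6 called genes each way or the 4 smallest p-values. Members and lists were chosen with earlier results of these data known. Alternatives changed the pseudocount, filter, rescaling, prior, treatment of merged records and day scale, or left out libraries, stages or a genotype.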

Additional observations from a re-analysis of the deposited data

Results flagged for a closer look

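In 21 of 298 groups of 4 or 6 libraries, 1 library lay far from the others, where the rule used flags about 1 in 20 by chance; the genes were chosen for the text with their values known. In older bottom stomach 9 of these values were P10 percc1-/-: Cpb1 at 37.6 FPKM (others at most 10.1), Rnase1 at 32.7 FPKM (at most 7.71) and Iapp at 6.44 FPKM (at most 1.87), which are pancreas genes, Far2 at 4.49 FPKM and Anxa9 at 5.55 FPKM (others listed at 0), Lipm at 9.77 FPKM (at most 3.58), Crnn at 1.03 FPKM (at most 0.319), Plagl1 at 24.1 FPKM (at most 13.3) and Upk1b at 1.66 FPKM (at most 1). In P10 wild type Glp1r was at 2.76 FPKM (others at least 9.84) and Lypd2 at 3.48 FPKM (at most 1.52), and in P20 percc1-/- Nt5dc2 was at 5.58 FPKM (others listed at 0).

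In younger whole stomach 6 values were P1 percc1-/-: Kcne2 at 2.09 FPKM (others at least 9.18), Pga5 at 41 FPKM (at least 105), Foxa3 at 2.71 FPKM (at least 8.98), Klk13 at 31.5 FPKM (at most 15.4), Fmo1, a monooxygenase, at 18.6 FPKM (at most 8.42) and Car9 listed at 0 (at least 6.03). Afp was at 44.8 FPKM in P5 percc1-/- (others at most 7.72), Zim1 at 7.02 FPKM in P5 wild type (others up to 15.8) and Mest at 36 FPKM in P1 wild type (at most 23.5).

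The age effect, older minus younger, differed between percc1-/- and wild type by limma's interaction term for Prelid1 (log2 4.79, adjusted p = 1.42e-06), Dnajc19 (4.17, adjusted p = 0.000196), Pgam2 (3.58, adjusted p = 0.00114), Trmu (3.58, adjusted p = 0.0329) and Stambpl1 (3.19, adjusted p = 0.0177); each rests on levels listed at 0 and is no measure of size. The age effect of stomach minus that of small intestine was highest for Selm (3.63, adjusted p = 0.0386, with levels listed at 0 in 4 stomach libraries), Chia (3.30, adjusted p = 0.000586), Mogat1 (3.21, adjusted p = 2.18e-05), Aldh3a1 (3.05, adjusted p = 8.2e-06), 4931406C07Rik (2.99, adjusted p = 1.4e-07) and Muc5ac (2.81, adjusted p = 0.00225). It was lowest for Far2 (-3.76, adjusted p = 9.23e-05), Gdpd2 (-3.71, adjusted p = 7.06e-05), Anxa9 (-3.52, adjusted p = 0.00033), Cyp3a25 (-3.38, adjusted p = 0.00288), Pkp1 (-3.36, adjusted p = 0.00118) and Gm14850 (-3.28, adjusted p = 9.23e-05). Far2 and Anxa9 were listed at 0 in all older stomach libraries but P10 percc1-/-, which may be failed estimates. A gene can enter this fit through its stomach levels alone. Its difference then largely restates the stomach change, which also holds the change of dissected part.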

How the results depend on the processing

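No named gene called between the age groups changed sign in any alternative. Pgam2, not called and listed at 0 in both younger percc1-/- libraries, turned to -1.80 in wild type alone and to -1.83 without the 4 libraries that stood apart. The count of genes called between older bottom and younger whole stomach, 2280, ran from 1133 to 2606 with 1 library left out. It was 772 on stage means of both genotypes, 445 without P1, 816 without P15, 848 without P20, 420 in wild type alone, 61 in percc1-/- alone and 275 without the 4 libraries that stood apart, a choice made after seeing the data; fewer libraries enter each of these fits. It kept within 1.5 times under the other pseudocounts, filters, scalings and priors, and with stage as a random block (1877, stage correlation 0.0986). The slope from P10 to P20 called 0 genes, but 284 without rescaling and 2 after quantile normalization; the cause was not tested. The step between parts called 0 genes, but 1 with a pseudocount of 0.1, 2 without rescaling, 2 after quantile normalization, 1 with a plain prior, 1 on log2 of day, and 0 to 2 with 1 library left out. The day slope within a part and P5 against P1 called 0 in all alternatives run. For P5 against P1, a fit of 4 libraries, few calls were possible in any of them. The difference between organs (1540) ran from 929, without P1 percc1-/-, to 1757 with 1 library left out, and the difference between genotypes (5) from 3 to 109. No paired analysis was possible because the labels carry no replicate numbers that the groups share. Depth is known only from estimates, so no counting error can be given.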
